A study of Homo sapiens with 2 samples.

Results

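SR proteins and heterogeneous nuclear ribonucleoproteins (hnRNPs) are the 2 large classes of RNA-binding proteins that decide which exons enter an mRNA. Their genes were compared between BFTC 905 cells that carry an ANGPTL4 plasmid and BFTC 905 cells that carry the empty vector. Members were set by symbol, with earlier results of these data known. The SR class took SRSF genes, TRA2A, TRA2B, SRRM1 and SRRM2, and the hnRNP class took HNRNP genes with PTBP1, PTBP2 and PTBP3. Read-through, antisense and pseudogene names were left out. This gave 41 genes of the 55773 gene symbols in the tables, 16 SR and 25 hnRNP genes.

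BFTC 905 is an established human bladder cancer line, which the labels describe as low in ANGPTL4. The ANGPTL4 group is BFTC 905 transfected with a plasmid overexpressing ANGPTL4, a secreted regulator of lipoprotein lipase. The vector control group is BFTC 905 transfected with pcDNA3.1, per the protocol the myc-His (-) A form. Cells of both groups had been selected with 400 µg/ml G418, and whether a line is 1 clone or a pool of clones is not given in the sources used here. Total RNA of each was sequenced as 1 library, so differences are without replicate check or p-value, and every comparison is between these 2 libraries.

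As background, SR proteins carry RNA recognition motifs and a tail rich in arginine and serine. They bind exonic splicing enhancers, recruit the U1 and U2 snRNPs to nearby splice sites and are regulated by phosphorylation of that tail. Most hnRNPs coat nascent transcripts, and many bind silencers, where they oppose SR proteins, although some also activate exons. Many genes of both classes hold ultraconserved "poison" exons or similar alternative exons through which their own protein lowers the mRNA by nonsense-mediated decay.

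Levels are RPKM, read numbers divided by exon length and by the reads of the library. The steps between RPKM values corresponded to 3233596 reads in the ANGPTL4 library and 6572767 reads in the vector control library, so the control library was 2.03 times as deep. ANGPTL4 itself was at 91.2 RPKM in the ANGPTL4 library and 3.92 RPKM in the vector control library, a ratio of 23.2 (95% interval 18.0 to 30.5). Plasmid and chromosomal ANGPTL4 reads are not separated in these values. Of 18 epithelial and urothelial markers, 15 reached 1 RPKM, with summed levels of 2471 RPKM in the ANGPTL4 library and 2665 RPKM in the control library. UPK3A, a marker of umbrella cells, was listed at 0 in both libraries. Of the 6 leukocyte markers only CD14 reached 1 RPKM, at 1.15 RPKM in the ANGPTL4 library and 0.968 RPKM in the control library, and CD3E, MS4A1 and NKG7 were listed at 0 in both. Summed leukocyte levels were 1.15 RPKM in the ANGPTL4 library and 0.986 RPKM in the control library. None of the 3 endothelial and 5 fibroblast markers in the tables reached 1 RPKM. In bulk RNA such as this, fewer cells of a type and less RNA per cell cannot be told apart.

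Most of these genes were abundant in both libraries. Of the 41 members, 38 were measured, meaning at least 1 RPKM in at least 1 library, and 34 of them reached 10 RPKM. Summed over the 38 measured members, the level was 1615 RPKM in the ANGPTL4 library and 1577 RPKM in the vector control library. Measured members held 0.969% of all reads in the ANGPTL4 library (95% Wilson interval 0.958 to 0.979) and 0.922% in the control library (0.915 to 0.929). The summed level of SR genes was 364.0 RPKM in the ANGPTL4 library and 375.3 RPKM in the control library, whereas that of hnRNP genes was 1251 RPKM in the ANGPTL4 library and 1202 RPKM in the control library. The 3 members not measured were SRSF12, PTBP2 and HNRNPCL1. SRSF12, an SR-like splicing repressor, was listed at 0 in the ANGPTL4 library, where 3 reads would equal 0.204 RPKM, and gave 6 reads, or 0.201 RPKM, in the control library, which could not be told apart at this depth. PTBP2, the neuronal polypyrimidine tract protein, was at 0.610 RPKM in the ANGPTL4 library and 0.404 RPKM in the control library. Its ratio of 1.51 had an interval of 0.873 to 2.58. HNRNPCL1, an HNRNPC-like gene, was listed at 0 in both libraries.

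The order of the levels was also much alike, with Spearman's rho of 0.952 across the 38 measured members, given as a description. HNRNPA1 was the highest in both libraries. HNRNPF, HNRNPC, HNRNPA2B1 and HNRNPK followed in the ANGPTL4 library, and HNRNPK, HNRNPA2B1, HNRNPF and HNRNPC in the control library. In both libraries SRRM2 was the most abundant SR gene, and SRSF8, HNRNPA1L2 and HNRNPLL stood lowest among the measured members.

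**Figure D1:**
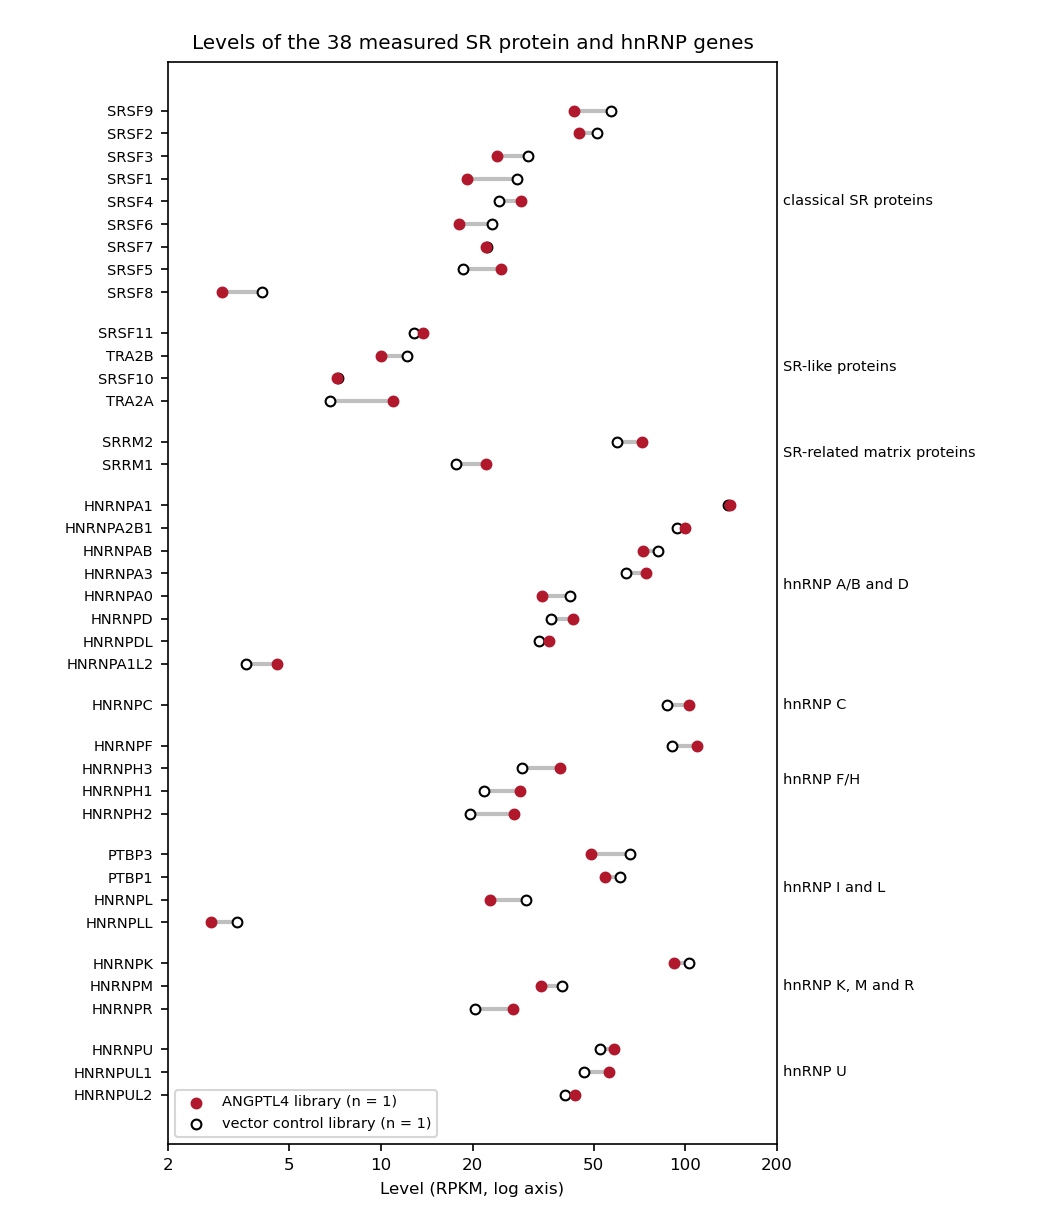
Level of each measured SR protein and hnRNP gene in RPKM (log axis), by family. Filled points are the ANGPTL4 library and open points the vector control library (n = 1 each). Pairs lie close together for most genes, with the filled point to the left for 7 of 9 classical SR proteins and to the right for all 4 hnRNP F/H genes.

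Within each of the 2 classes, families lay on both sides of 1. Differences are given as log2 ratios of RPKM + 1, ANGPTL4 over vector control, which understate the difference of low genes, and as ratios of RPKM with exact 95% intervals from the reads, which cover counting error only. Of the 38 measured members, 21 were higher and 17 lower in the ANGPTL4 library, between -0.52 for SRSF1 and 0.62 for TRA2A. Their median log2 ratio was 0.09, against -0.11 for all 11802 measured genes. The interquartile range of the members was -0.22 to 0.27, and that of all genes -0.33 to 0.09. Because centring on the median gene moves every log2 ratio by 0.11, directions were also read under 4 other scalings. Under all 5 scalings 21 members were higher and 12 lower, and the direction of HNRNPAB, HNRNPK, PTBP1, SRSF7 and SRSF10 depended on the scaling. Each of the 4 other scalings raised the log2 ratio of every measured member. A member higher as deposited could therefore not turn, so being higher under all 5 is no further check. The SR genes had a median of -0.011, whose sign turned under each of the 4 other scalings, and the hnRNP genes a median of 0.11.

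By a size rule of 1.5-fold on the log2(RPKM + 1) scale, 1 member was higher, TRA2A, and none was lower. By the same rule 3.08% of all measured genes were higher and 9.25% were lower, and among genes of at least 10 RPKM 1.60% were higher and 10.2% lower. The share of genes in the higher direction among these calls was 25% as deposited, 44.1% after centring on the median gene, 48.5% with upper-quartile scaling, 38.9% after scaling without genes of mitochondria, ribosomal proteins and small RNAs and 39.4% after a loess correction for length and GC content. No member differed 2-fold, which 1.19% of all measured genes did in the higher and 1.91% in the lower direction, and 0.501% and 1.77% of genes of at least 10 RPKM. The counting interval lay wholly above 1 for 16 members, or 42.1%, and wholly below 1 for 13, or 34.2%. Over all genes with a settled exon length these shares were 8.30% above and 27.4% below, against 47.1% above and 29.4% below for the 34 members with settled reads, so the share below was close to that of all genes. Among settled genes of at least 10 RPKM, whose intervals are narrower, they were 14.0% above and 41.3% below, against 51.6% above and 32.3% below for the 31 members of that kind. Set against the median ratio of all genes, 0.926, 20 members had an interval wholly above it and 8 wholly below it, beside 14.3% and 18.1% of all genes.

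**Figure D2:**
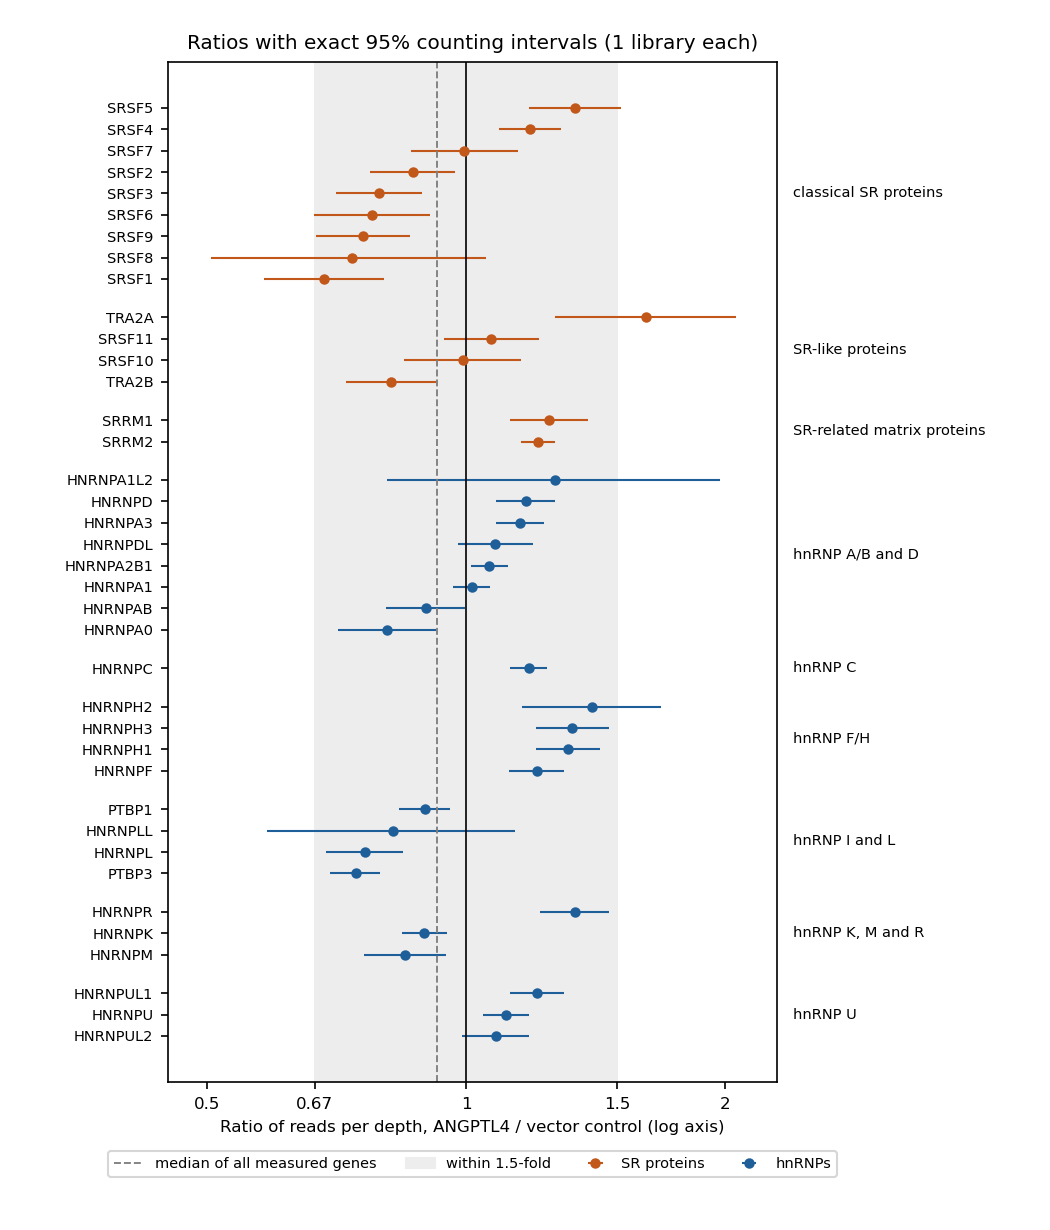
Ratio of the ANGPTL4 to the vector control library for each measured member (log axis), with exact 95% counting intervals, SR proteins in orange and hnRNPs in blue. The shaded band is within 1.5-fold and the dashed line is the median ratio of all genes, 0.926. TRA2A at 1.62 is the single point beyond the band, and SRSF1 at 0.684 lies closest to its lower edge.

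The 9 classical SR proteins were mostly lower in the ANGPTL4 library. Their summed level was 227.8 RPKM in the ANGPTL4 library and 259.0 RPKM in the vector control library, and the median log2 ratio was -0.32. As deposited 7 were lower and 2 higher, and under the 4 other scalings, where SRSF7 turned, 6 were lower and 3 higher. The interval was wholly below 1 for 5 of them and wholly above 1 for 2. Among all settled genes of at least 10 RPKM, 41.3% lay wholly below 1 and 14.0% wholly above. Set against the median ratio of all genes, which is itself below 1, 4 classical SR genes had an interval wholly below and 2 wholly above.

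SRSF1 (hg19 chromosome 17, 56080721 to 56084707, like every value here over the exons of the gene) encodes the founding SR protein, which selects 5' splice sites and acts as an oncogene in several tumour models. It was at 19.2 RPKM from 207 reads in the ANGPTL4 library and 28.0 RPKM from 615 reads in the vector control library. The ratio of 0.684 (0.582 to 0.802) was the lowest of the 38 measured members. SRSF9, which binds enhancers much like those of SRSF1, was at 43.1 RPKM in the ANGPTL4 library and 56.8 RPKM in the control library (ratio 0.759, 0.670 to 0.859). SRSF6, a regulator of keratinocyte and wound-healing exons in mouse skin, was at 18.0 RPKM in the ANGPTL4 library and 23.1 RPKM in the control library (ratio 0.778, 0.665 to 0.907). SRSF3, the smallest family member and an adaptor for mRNA export, was at 24.1 RPKM in the ANGPTL4 library and 30.4 RPKM in the control library (ratio 0.792, 0.705 to 0.888). SRSF2, the speckle protein SC35, was at 44.6 RPKM in the ANGPTL4 library and 51.4 RPKM in the control library (ratio 0.867, 0.773 to 0.971). These 5 were lower beyond counting error. SRSF8, a retrocopy of SRSF2, was low in both, at 3.0 RPKM in the ANGPTL4 library and 4.07 RPKM in the control library, and its interval of 0.504 to 1.06 held 1. SRSF7, the zinc-knuckle member, lay at 22.2 RPKM in the ANGPTL4 library and 22.3 RPKM in the control library, with an interval of 0.862 to 1.15.

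The other 2 classical members were higher. SRSF5 (chromosome 14, 70193617 to 70238722) was at 24.8 RPKM in the ANGPTL4 library and 18.5 RPKM in the vector control library (ratio 1.34, 1.18 to 1.51). SRSF4, which with SRSF5 and SRSF6 belongs to the longer proteins with a pair of recognition motifs, was at 28.9 RPKM in the ANGPTL4 library and 24.4 RPKM in the control library (ratio 1.19, 1.09 to 1.29). Per length, the SRSF1 level was 0.772 of the SRSF5 level in the ANGPTL4 library and 1.51 of it in the control library. This is a description only, since the pair are the lowest and the highest of the class and were set side by side for that.

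The SR-like proteins lay on both sides of 1, and the 2 transformer-2 genes lay apart. TRA2A and TRA2B encode near relatives of the fly sex-determination factor and activate exons with purine-rich GAA enhancers. TRA2A (chromosome 7, 23544399 to 23571660) was at 11.0 RPKM from 125 reads in the ANGPTL4 library and 6.79 RPKM from 157 reads in the vector control library, a ratio of 1.62 (1.27 to 2.06). TRA2B was at 10.0 RPKM in the ANGPTL4 library and 12.2 RPKM in the control library, a ratio of 0.819 (0.725 to 0.923). TRA2A stood at 1.10 times the level of TRA2B in the ANGPTL4 library and at 0.556 times in the control library. The ratio of ratios was 1.98 (1.52 to 2.57), a description only, since TRA2A had the highest ratio of the measured members. SRSF10, which represses splicing when dephosphorylated after heat shock, was at 7.19 RPKM in the ANGPTL4 library and 7.25 RPKM in the control library (interval 0.846 to 1.16). SRSF11, an SR-like protein that binds the U2 auxiliary factor, was at 13.7 RPKM in the ANGPTL4 library and 12.8 RPKM in the control library (interval 0.942 to 1.21).

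SRRM1 and SRRM2 encode the large coactivators SRm160 and SRm300, and SRRM2 is a core of nuclear speckles. SRRM2 was at 72.2 RPKM from 3098 reads in the ANGPTL4 library and 59.5 RPKM from 5192 reads in the vector control library (ratio 1.21, 1.16 to 1.27). SRRM1 was at 22.1 RPKM in the ANGPTL4 library and 17.7 RPKM in the control library (ratio 1.25, 1.12 to 1.39). Both were higher as deposited, and so under the 4 other scalings, which raised every measured member. SRRM2 has the longest exon total of the measured members and so weighs on sums of reads. Measured SR genes held 0.25% of reads in the ANGPTL4 library (0.245 to 0.256) and 0.237% in the control library (0.233 to 0.241), whereas their summed RPKM stood in the opposite order.

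The hnRNP A/B and D genes were the most abundant family and lay near 1. Their summed level was 504.0 RPKM in the ANGPTL4 library and 492.2 RPKM in the vector control library, with a median log2 ratio of 0.10, and 6 of 8 were higher as deposited and 7 of 8 with upper-quartile scaling. HNRNPA1 (chromosome 12, 54673977 to 54680872), the main antagonist of SRSF1 at splice sites, gave 2316 reads, or 140.6 RPKM, in the ANGPTL4 library and 4639 reads, or 138.6 RPKM, in the control library (ratio 1.01, 0.965 to 1.07). The level of SRSF1 relative to HNRNPA1 was 0.136 in the ANGPTL4 library and 0.202 in the control library, a ratio of ratios of 0.674 (0.572 to 0.795). With HNRNPA1 near 1, this largely restates the SRSF1 ratio, the lowest of the measured members, and is a description only. HNRNPA2B1, which reads N6-methyladenosine and sorts RNA, was at 99.8 RPKM in the ANGPTL4 library and 93.8 RPKM in the control library (ratio 1.06, 1.01 to 1.12). HNRNPA3 was at 74.0 RPKM in the ANGPTL4 library and 64.1 RPKM in the control library (ratio 1.16, 1.08 to 1.23). HNRNPD, the AU-rich element binding protein AUF1, was at 42.6 RPKM in the ANGPTL4 library and 36.3 RPKM in the control library (ratio 1.17, 1.08 to 1.27). These 3 genes had intervals above 1.

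HNRNPDL, a paralogue of HNRNPD, was at 35.7 RPKM in the ANGPTL4 library and 33.0 RPKM in the vector control library, and its interval of 0.978 to 1.20 held 1. HNRNPA0, which binds AU-rich elements of cytokine mRNAs, was lower, at 33.8 RPKM in the ANGPTL4 library and 41.8 RPKM in the control library (ratio 0.809, 0.709 to 0.921). HNRNPAB was at 72.8 RPKM in the ANGPTL4 library and 81.1 RPKM in the control library (ratio 0.898, 0.807 to 0.998), and was not lower with upper-quartile scaling.

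HNRNPA1L2, a copy of HNRNPA1 on chromosome 13, was at 4.58 RPKM in the ANGPTL4 library and 3.60 RPKM in the vector control library, with an interval of 0.808 to 1.97. Its reads are hard to tell from those of HNRNPA1. The pair are identical at 98.4% of 960 aligned coding bases, and the pseudogene HNRNPA1P48 on chromosome 16 is identical to HNRNPA1 at 99.3% of 825 bases. A stretch of 60 coding bases from GENCODE release 29 shows how alike they are. The capital marks the 1 position at which the 3 sequences differ; the stretch starts at coding base 136 of HNRNPA1 and HNRNPA1L2 and at base 1 of the HNRNPA1P48 frame.
HNRNPA1: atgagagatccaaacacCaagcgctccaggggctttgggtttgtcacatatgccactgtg
HNRNPA1L2: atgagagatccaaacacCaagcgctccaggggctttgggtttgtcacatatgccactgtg
HNRNPA1P48: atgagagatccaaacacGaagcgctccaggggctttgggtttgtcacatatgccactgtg
HNRNPA1P48 was at 7.58 RPKM from 21 reads in the ANGPTL4 library and 14.2 RPKM from 80 reads in the vector control library (ratio 0.534, 0.313 to 0.872). With its reads added, HNRNPA1 had a ratio of 1.01 (0.958 to 1.06), since HNRNPA1 held 99.1% of the combined reads in the ANGPTL4 library and 98.3% in the control library.

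HNRNPC, which binds uridine tracts and keeps Alu elements out of mRNAs, was at 103.2 RPKM in the ANGPTL4 library and 87.3 RPKM in the vector control library. Its ratio was 1.18 (1.12 to 1.24), from 2441 reads in the ANGPTL4 library and 4195 reads in the control library.

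All 4 hnRNP F/H genes were higher in the ANGPTL4 library as deposited, and so under the 4 other scalings, which raised every measured member. With reads of the row RPL36A-HNRNPH2 added, HNRNPH2 had a ratio of 0.918 as deposited, and the interval of 0.785 to 1.07 held 1. The F/H proteins bind runs of guanines through quasi recognition motifs. Their summed level was 204.2 RPKM in the ANGPTL4 library and 161.0 RPKM in the vector control library, and the median log2 ratio was 0.39. HNRNPF (chromosome 10, 43881065 to 43904614) was at 109.4 RPKM in the ANGPTL4 library and 90.5 RPKM in the control library (ratio 1.21, 1.12 to 1.30). HNRNPH1 (chromosome 5, 179041179 to 179061785) was at 28.7 RPKM in the ANGPTL4 library and 21.8 RPKM in the control library (ratio 1.32, 1.21 to 1.43). HNRNPH3 (chromosome 10, 70090931 to 70102948), the shorter relative, was at 38.7 RPKM in the ANGPTL4 library and 29.1 RPKM in the control library (ratio 1.33, 1.20 to 1.47). All 3 intervals lay above 1. HNRNPH2 (chromosome X, 100663283 to 100669121) was at 27.4 RPKM from 197 reads in the ANGPTL4 library and 19.6 RPKM from 286 reads in the control library (ratio 1.40, 1.16 to 1.68). Within each library the order HNRNPF, HNRNPH3, HNRNPH1, HNRNPH2 was the same, and the proportion of HNRNPH1 to HNRNPF was 0.262 in the ANGPTL4 library and 0.241 in the control library (ratio of ratios 1.09, 0.973 to 1.22).

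Reads of these paralogues can be told apart more readily than those of the HNRNPA1 copies, as their first 60 coding bases show. The sequences are from GENCODE release 29, and capitals mark the 17 positions at which the 3 differ.
HNRNPH1: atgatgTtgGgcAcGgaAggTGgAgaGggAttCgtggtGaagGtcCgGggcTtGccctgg
HNRNPH2: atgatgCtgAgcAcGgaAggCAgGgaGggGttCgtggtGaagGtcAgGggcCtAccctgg
HNRNPF: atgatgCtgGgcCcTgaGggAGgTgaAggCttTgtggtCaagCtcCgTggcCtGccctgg
HNRNPH2 differs from HNRNPH1 at 9 of these bases and HNRNPF at 13. Over the aligned coding sequence HNRNPH2 is identical to HNRNPH1 at 87.2% of 1343 bases and HNRNPF at 77.5% of 1242 bases.

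Promoter sequence was taken from RefSeq on GRCh38.p14, from 250 bases before to 50 after the start of the gene, for the 35 measured members in the table. HNRNPA1, SRSF2 and TRA2A are not in that table. The promoters of HNRNPH1 (chr5:179634735-179635034, minus strand) and HNRNPH2 (chrX:101407972-101408271, plus strand) are shown because they hold the fewest and the most of the motifs searched among the 4 genes. Capitals mark matches of those motifs on either strand.
HNRNPH1: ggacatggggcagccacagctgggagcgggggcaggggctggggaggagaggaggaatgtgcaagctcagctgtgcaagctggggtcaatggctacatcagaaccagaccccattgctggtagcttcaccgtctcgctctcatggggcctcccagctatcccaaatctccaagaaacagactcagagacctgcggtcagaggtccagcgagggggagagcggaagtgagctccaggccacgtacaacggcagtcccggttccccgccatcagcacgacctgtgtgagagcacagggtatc
HNRNPH2: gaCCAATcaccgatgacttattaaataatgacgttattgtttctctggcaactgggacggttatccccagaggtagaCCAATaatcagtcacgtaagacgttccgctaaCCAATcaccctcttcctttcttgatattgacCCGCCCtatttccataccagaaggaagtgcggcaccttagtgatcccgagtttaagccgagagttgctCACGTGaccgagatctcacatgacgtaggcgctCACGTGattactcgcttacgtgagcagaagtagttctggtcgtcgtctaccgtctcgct
The HNRNPH1 window held none of the 7 motifs, and the HNRNPH2 window held 3 CCAAT boxes, 1 GC box and 2 E-boxes. The HNRNPH3 window held the same kinds, 1 CCAAT box, 3 GC boxes and 1 E-box, and the HNRNPF window 1 CCAAT box, 2 GC boxes and 1 ETS core. Over the 35 promoters, the GC box GGGCGG was found in 24, or 68.6%, against 45.0% of all 35116 promoters in the table. The CCAAT box (CCAAT) was found in 17, or 48.6%, against 34.6% of all. The E-box CACGTG was found in 7 of 35, all of them hnRNP genes, against 7.26% of all. The TATA box (TATAAA) and the ETS core CCGGAAG were each found in 5, or 14.3%, against 11.5% and 10.3% of all. The CRE letters TGACGTCA and the NRF1 motif were found in 0 of 35, and in 1.85% and 1.24% of all. No motif contains another, a match is a description of these letters, and each window follows 1 annotated start per gene. The shares of all promoters were not limited to measured genes or matched for level. Whether the members differ from other genes of like level was not tested.

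The polypyrimidine tract and hnRNP L genes were lower. Their summed level was 129.1 RPKM in the ANGPTL4 library and 160.1 RPKM in the vector control library, and the median log2 ratio was -0.29. All 4 measured genes were lower as deposited, and 3 of 4 with upper-quartile scaling, where PTBP1 turned. PTBP3 (chromosome 9, 114980715 to 115095947), a paralogue of PTBP1 first known from blood cells, was at 48.9 RPKM from 1190 reads in the ANGPTL4 library and 65.8 RPKM from 3252 reads in the control library (ratio 0.744, 0.695 to 0.795). HNRNPL, which binds CA repeats, was at 22.8 RPKM in the ANGPTL4 library and 29.9 RPKM in the control library (ratio 0.762, 0.687 to 0.845). PTBP1, the repressor that favours the PKM2 form of pyruvate kinase, was at 54.6 RPKM in the ANGPTL4 library and 61.0 RPKM in the control library (ratio 0.895, 0.836 to 0.957). These 3 intervals lay below 1, and 2 of them, those of PTBP3 and HNRNPL, lay wholly below the median ratio of all genes. HNRNPLL, a regulator of CD45 exons in lymphocytes, was at 2.77 RPKM in the ANGPTL4 library and 3.36 RPKM in the control library, with an interval of 0.586 to 1.14. PTBP3 was at 0.896 of the PTBP1 level in the ANGPTL4 library and at 1.08 of it in the control library (ratio of ratios 0.831, 0.756 to 0.913). That pair is a description only, since PTBP3 had the lowest and PTBP1 the highest ratio of the 4 measured genes.

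HNRNPK, HNRNPM and HNRNPR did not share a direction. HNRNPR, which also acts in mRNA transport in motor neurons, was at 27.2 RPKM in the ANGPTL4 library and 20.4 RPKM in the vector control library (ratio 1.34, 1.22 to 1.47). HNRNPM, an epithelial-mesenchymal splicing regulator, was at 33.5 RPKM in the ANGPTL4 library and 39.4 RPKM in the control library (ratio 0.850, 0.761 to 0.948). HNRNPK, the poly(C)-binding member, was at 91.7 RPKM in the ANGPTL4 library and 102.5 RPKM in the control library (ratio 0.894, 0.842 to 0.95), and was not lower with upper-quartile scaling or after the loess correction for length and GC content.

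The 3 hnRNP U genes were higher by small amounts as deposited, and so under the 4 other scalings, which raised every measured member. HNRNPU, the scaffold attachment factor that ties RNA to chromatin, was at 58.1 RPKM in the ANGPTL4 library and 52.3 RPKM in the vector control library (ratio 1.11, 1.05 to 1.18). HNRNPUL1, a relative with a part in DNA end resection, was at 56.3 RPKM in the ANGPTL4 library and 46.6 RPKM in the control library (ratio 1.21, 1.13 to 1.30). HNRNPUL2 was at 43.5 RPKM in the ANGPTL4 library and 40.1 RPKM in the control library, and its interval of 0.990 to 1.18 held 1.

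Some members can share reads with other rows, and this touches several of the larger differences. The region of 13 measured members is overlapped by another row above 0, and that of 25 is not. By GENCODE release 29, 6 members share over 20% of their exonic runs of 50 bases with another gene: HNRNPA1L2 with 58.5%, SRSF1 with 54.6%, SRSF9 with 43.9%, HNRNPUL2 with 43.2%, SRSF2 with 29.2% and HNRNPA1 with 23.0%. Another 6, TRA2A and PTBP3 among them, share none.

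HNRNPH2 is overlapped in part by the read-through row RPL36A-HNRNPH2, which ends inside it, and shares 14.5% of its exonic runs of 50 bases with that row. RPL36A-HNRNPH2 was at 18.7 RPKM from 42 reads in the ANGPTL4 library and 53.2 RPKM from 243 reads in the vector control library (ratio 0.351, 0.247 to 0.489). HNRNPH2 held 82.4% of the reads of this pair in the ANGPTL4 library (Wilson interval 77.1 to 86.7) and 54.1% in the control library (49.8 to 58.3). The combined reads were 239 in the ANGPTL4 library and 529 in the control library, a ratio of 0.918 (0.785 to 1.07), so the higher level of HNRNPH2 was not seen in the sum. The read-through row shares 45.6% of its own runs of 50 bases with HNRNPH2. The ribosomal protein gene RPL36A, upstream in the same read-through unit, was at 25.8 RPKM from 328 reads in the ANGPTL4 library and 14.6 RPKM from 377 reads in the control library. RPL36A reads are not in the sum above, which therefore depends on the rows chosen for it. The part that assignment of reads between these rows plays in the HNRNPH2 result was not tested.

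SRSF1 is overlapped by RP11-159D12.5, a row without a gene symbol on chromosome 17 from 56066399 to 56082614. That row was at 43.5 RPKM in the ANGPTL4 library and 28.2 RPKM in the vector control library (ratio 1.54, 1.18 to 2.01), the opposite direction to SRSF1. Its exon length could not be settled, so the reads of the 2 rows were not added, and the part of this row in the SRSF1 result was not tested. HNRNPL is overlapped by AC104534.3, which was at 5.46 RPKM from at least 17 reads in the ANGPTL4 library and 2.21 RPKM from at least 14 reads in the control library (ratio 2.47, 1.15 to 5.41), again the opposite direction. The exon length of that row was not settled either, and its part in the HNRNPL result was not tested. SRSF9 shares its 43.9% with GATC, whose own row does not overlap it in the tables and was at 13.8 RPKM in the ANGPTL4 library and 17.6 RPKM in the control library, the same direction as SRSF9. For HNRNPA2B1, whose region meets that of CBX3, a heterochromatin protein gene, the ratio with CBX3 reads added was 1.0 (0.958 to 1.05), an interval that then held 1. CBX3 was at 15.0 RPKM in the ANGPTL4 library and 24.2 RPKM in the control library, so adding its reads lowers the combined ratio in any case. HNRNPA2B1 shares 3.35% of its exonic runs of 50 bases with CBX3, and the sum does not show whether reads are shared. For HNRNPUL2 the ratio with HNRNPUL2-BSCL2 added was 1.11 (1.03 to 1.21), above 1, and for SRSF2 with MFSD11 added it was 0.855 (0.768 to 0.949). Of the 5 members with combined reads, HNRNPH2 alone had a combined ratio on the other side of 1, and its interval held 1.

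**Figure D3:**
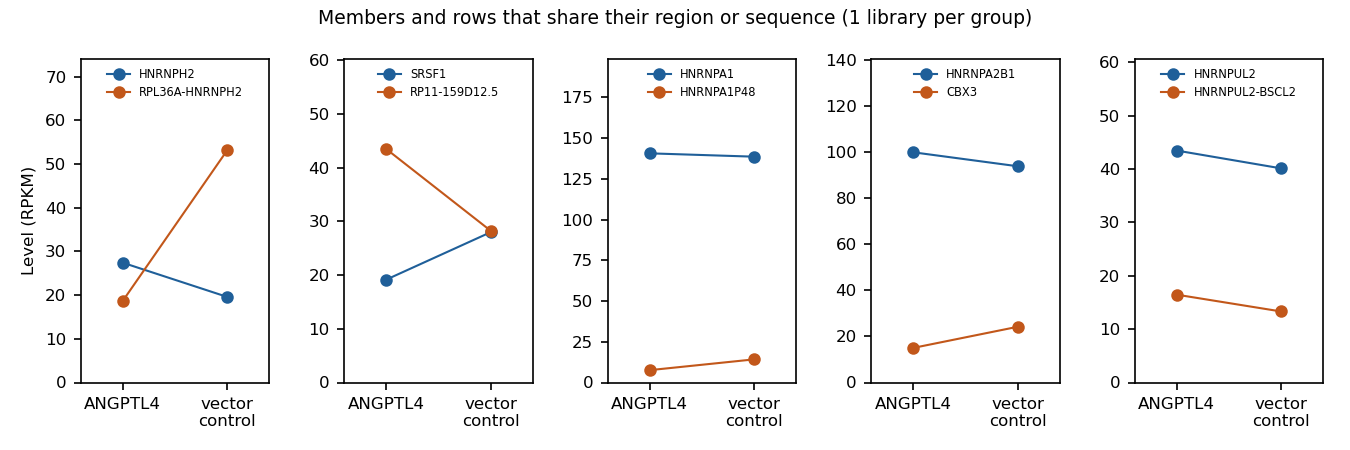
Levels in RPKM of 5 members (blue) and of a row that shares the region or sequence of each (orange), ANGPTL4 library on the left and vector control library on the right of each panel (1 library each), each panel with its own axis from 0. HNRNPH2 and RPL36A-HNRNPH2 cross, at 27.4 and 18.7 RPKM in the ANGPTL4 library and 19.6 and 53.2 RPKM in the control library.

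Annotated decay isoforms were common among the members. GENCODE release 29 lists at least 1 transcript subject to nonsense-mediated decay for 29 of the 38 measured members, or 76.3%, against 43.7% of 10394 measured protein-coding genes. All 15 measured SR genes have one, as do 14 of 23 hnRNP genes, and HNRNPU has the most, 9. Gene-level values do not separate these transcripts from the coding ones. The comparison with all measured protein-coding genes was not matched for level or for the number of annotated transcripts. Across the 38 measured members Spearman's rho of the log2 ratio was 0.045 with exon length and -0.032 with GC content, given as a description.

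The surrounding splicing machinery was followed in 10 lists, with 147 measured genes, of which 1 was at least 1.5-fold higher and 7 at least 1.5-fold lower. As deposited, both are smaller shares than those of all measured genes, 3.08% higher and 9.25% lower. After the loess correction for length and GC content 6 list genes were higher, beside 332 of 10698 genes. The smaller share in the higher direction did not hold there. The median log2 ratio of the list genes was 0.02 beside -0.11 for all measured genes. The kinases that phosphorylate SR proteins and the importer that carries them to the nucleus gave 9 measured genes, 6 higher and 3 lower, none of them 1.5-fold, with a median of 0.15. In that list SRPK1 was at 28.8 RPKM in the ANGPTL4 library and 31.5 RPKM in the vector control library, and CLK4 at 2.73 RPKM in the ANGPTL4 library and 1.96 RPKM in the control library (ratio 1.39, 1.01 to 1.91). The 25 other SR-related proteins had a median of 0.17, and 19 were higher. Among them LUC7L2, a U1 snRNP partner, was at 2.05 RPKM from 44 reads in the ANGPTL4 library and 0.550 RPKM from 24 reads in the control library (ratio 3.73, 2.22 to 6.41), the single gene of the lists past 1.5-fold in the higher direction on the log2(RPKM + 1) scale, on which all these counts were made. Methyltransferases and importers of hnRNPs had a median of -0.025 over 4 genes and the hnRNPs that go by other symbols one of -0.012 over 6, both above 0 under the 4 other scalings, and other splicing regulators one of 0.026 over 28. None of these genes was 1.5-fold apart on that scale. By the plain ratio CELF2, a regulator among the 28, was lower, at 1.25 RPKM in the ANGPTL4 library and 2.16 RPKM in the control library (ratio 0.581, 0.398 to 0.831). In the same way the SR-related genes SREK1IP1 at 0.609 (0.457 to 0.802) and NKTR at 1.51 (1.19 to 1.91) passed 1.5-fold by the plain ratio alone.

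The core particles had medians near that of all measured genes under the 5 scalings. The 15 Sm and LSm proteins, the rings around spliceosomal snRNAs, had a median of -0.19, with 10 lower and 4 of these 1.5-fold lower, where 9.25% of all measured genes were. SNRPE, an Sm ring subunit, was at 6.08 RPKM in the ANGPTL4 library and 18.6 RPKM in the vector control library (ratio 0.327, 0.213 to 0.487). LSM5, a subunit of the LSm rings, was at 1.78 RPKM in the ANGPTL4 library and 4.67 RPKM in the control library (ratio 0.381, 0.243 to 0.578). The U1 and U2 proteins had a median of -0.16 over 19 genes, none 1.5-fold apart. The tri-snRNP and Prp19 complex had a median of -0.15 over 26, with SNRNP40, a U5 protein, at 6.63 RPKM in the ANGPTL4 library and 10.5 RPKM in the control library (ratio 0.629, 0.488 to 0.804). Beside the 9.25% of all measured genes, 2 of 5 genes of the exon junction complex were 1.5-fold lower. Its helicase EIF4A3 was at 12.8 RPKM in the ANGPTL4 library and 20.6 RPKM in the control library (ratio 0.618, 0.526 to 0.724), and MAGOHB was at 2.35 RPKM in the ANGPTL4 library and 5.12 RPKM in the control library (ratio 0.458, 0.278 to 0.726). Its near-identical paralogue MAGOH was at 15.4 RPKM in the ANGPTL4 library and 14.2 RPKM in the control library. The 10 nonsense-mediated decay factors had a median of 0.14, none 1.5-fold apart on the log2(RPKM + 1) scale, although SMG8, at 0.659 RPKM from 8 reads in the ANGPTL4 library and 1.34 RPKM from 33 reads in the control library, had a plain ratio of 0.493 (0.197 to 1.09).

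**Figure D4:**
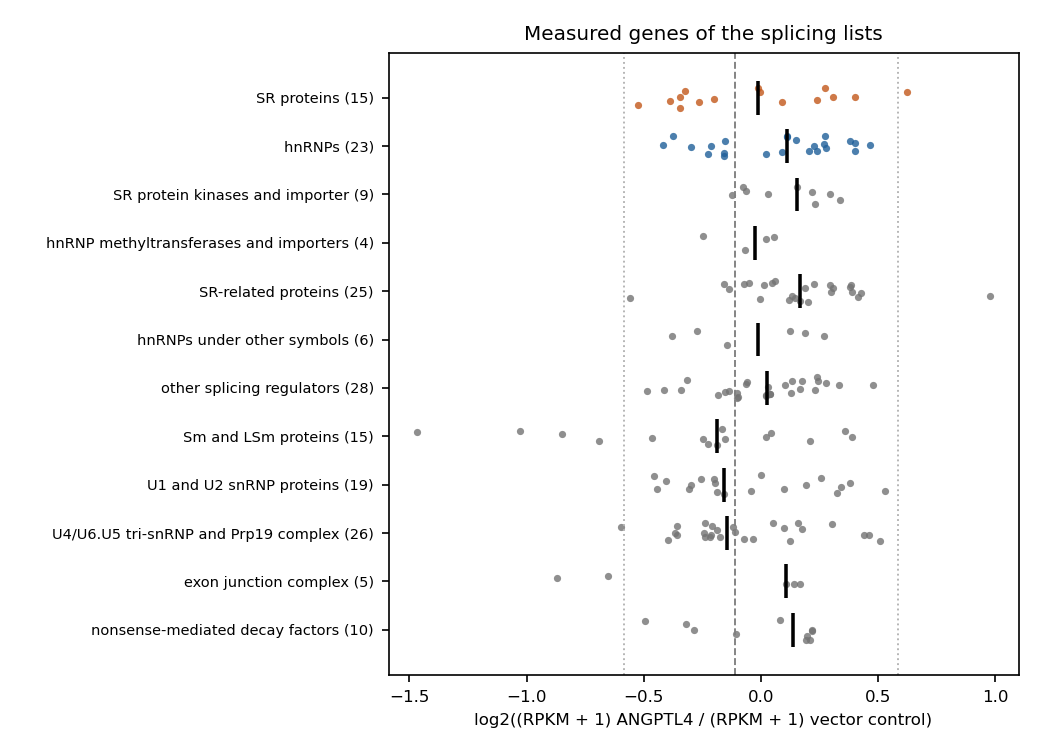
Log2 ratios of RPKM + 1, ANGPTL4 over vector control (1 library each), for the measured genes of the SR class, the hnRNP class and 10 splicing lists, with the number of genes in brackets. Each point is 1 gene and each bar a median; the dashed line is the median of all measured genes, -0.11, and the dotted lines are 1.5-fold. The points farthest to the left are SNRPE and LSM5, and the one farthest to the right is LUC7L2.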

How the data were processed

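Total RNA of both BFTC 905 lines had been extracted with TRIzol and sequenced, 1 library per group, and groups follow the transfection named in the labels. The values are RPKM per gene row, as the authors deposited them, per the file headers. Per the submitters' processing notes, the reads were placed on hg19. The aligner, counting program, annotation, strand use and treatment of reads that match several loci are not given in the sources used here, so reads of overlapping or near-identical rows may be divided in ways not known here. Since RPKM divides by all reads of a library, abundant genes lower the rest.

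The 57773 rows were summed by symbol to 55773 symbols, 27 of them names that had become dates, left as they are. Starts are printed counting from 1. The members and lists, the pairs of genes set against each other and the rows combined were chosen with earlier results of these data known. Each library's depth was the total that turns the values of all 13 mitochondrial genes into whole reads (tolerance 0.001). The exon length of a row was one at which both libraries gave whole reads (tolerance 0.0001), nearest to the GENCODE release 29 length. It was settled for 81.8% of measured genes, and for 34 of 38 measured members; for HNRNPA1L2, HNRNPM, SRSF3 and SRSF9, and for MAGOHB, CELF2, AC104534.3 and RP11-159D12.5, reads are minimum numbers and intervals, if anything, too wide. These reads underlie exact 95% intervals of a ratio and Wilson intervals of a share. A ratio of ratios has an interval by the normal approximation from 4 read counts. All cover counting error only. The pseudocount was 1 RPKM. Every member could be named, and of each splicing list the 2 genes at either end past 1.5-fold; SRPK1, CLK4, MAGOH, CELF2, SREK1IP1, NKTR and SMG8 were added after their values were seen. LSM8 and PECAM1 are not analysed here, and 1 leukocyte marker is not reported by name. Alternatives were a pseudocount of 0.1 or 5, a minimum of 5 RPKM or none, 4 scalings, a 2-fold rule, the longest row of each symbol and the ratio of recovered reads. The procedures were tested on simulated data. Python 3.11.15, numpy 2.4.6, pandas 2.3.3, scipy 1.17.1, statsmodels 0.14.6 and matplotlib 3.10.9 were used.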

Additional observations from a re-analysis of the deposited data

How the results depend on the processing

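No paired analysis was possible because each group has 1 library and the labels carry no replicate numbers. TRA2A was the 1 member past 1.5-fold higher in the deposited values, and 0 were lower under the settings tried. With a pseudocount of 5 or a 2-fold rule 0 members were past it, with upper-quartile scaling 2 were (HNRNPH2 and TRA2A), and after the loess correction for length and GC content 3 were (HNRNPH2, SRSF5 and TRA2A). Across the settings the log2 ratio of TRA2A lay between 0.44 and 0.82 and that of SRSF1 between -0.55 and -0.32. The members' median was 0.25 with upper-quartile scaling, and that of hnRNP genes was 0.27 both with that scaling and after the length and GC correction. The median of SR genes, -0.011 as deposited, was 0.10 after centring, 0.085 after scaling without genes of mitochondria, ribosomal proteins and small RNAs, 0.13 with upper-quartile scaling, 0.14 after the length and GC correction and 0.043 without rows that share over 20% of their sequence, so it carries no direction. The members' median lay 0.14 to 0.22 above that of all genes under the pseudocounts, minimums and scalings tried. The number of all genes at least 1.5-fold lower, 1092, was 1647 with a pseudocount of 0.1, 309 with one of 5, 667 with a minimum of 5 RPKM, 695 after centring, 659 with upper-quartile scaling, 511 after the length and GC correction and 226 with the 2-fold rule. The number higher, 364, was 600, 75, 108, 548 and 620 under the first 5 of these, 332 after the length and GC correction and 141 with the 2-fold rule. All measured genes numbered 6855 with a minimum of 5 RPKM, 11930 with upper-quartile scaling and 10698 after the length and GC correction. Set against the median ratio of all genes, an alternative added after seeing the data, 8 members in place of 13 had an interval wholly below. Of the splicing list genes, again by settings added later, 7 were 1.5-fold lower and 1 higher as deposited. With a pseudocount of 5 or the 2-fold rule 2 were lower and 0 higher, and with a minimum of 5 RPKM 0 were higher. After centring 4 were lower and 4 higher, beside 5.89% and 4.64% of all genes. With upper-quartile scaling 4 were lower and 6 higher, beside 5.52% and 5.2% of all genes. After scaling without the genes named above 4 were lower and 3 higher, beside 6.61% and 4.21%. After the length and GC correction 5 were lower and 6 higher, beside 511 and 332 of 10698 genes. Among these 4 scalings, only the last gave the list genes a larger share in the higher direction than all genes. The causes of these shifts were not tested. Depth limits SRSF8, SRSF12, HNRNPLL, HNRNPA1L2 and PTBP2, whose intervals all held 1.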
